A study of Oryctolagus cuniculus with 12 samples.

Results

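The levels of 5 enzymes of sugar breakdown and lactate handling were followed in ventricles of fetal rabbit hearts: PFKP, ALDOA, ENO3, LDHA and LDHB. They were read by every array probe whose current gene symbol is one of these names, which gave 13 of the 43603 probes and 5 of the 591 genes that could be named. LDHA and PFKP had 5 probes each, and ALDOA, ENO3 and LDHB had 1 probe each. The study compared 6 ventricles of fetuses with IUGR (intrauterine growth restriction, growth in the womb below what the fetus should reach) with 6 control ventricles, 1 single-colour array each. The labels put the samples in 6 numbered pairs, each of an IUGR and a control ventricle, and use the word treatment for the IUGR samples. They name neither the treatment, the fetal age nor what a pair shares, so growth restriction and any other effect of the treatment cannot be told apart. Separate litters are not stated either, and a p-value here covers the spread of these pairs only. The series concerns energy metabolism of the growth-restricted heart, and the question here was whether the enzymes from the committed step of glycolysis to lactate differed between the groups.

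Glycolysis breaks glucose down to pyruvate in the cytosol and yields ATP without oxygen. Phosphofructokinase commits the sugar to the pathway, aldolase splits it, and enolase makes phosphoenolpyruvate, the last intermediate before pyruvate. Lactate dehydrogenase then interconverts pyruvate and lactate. Its A subunit prevails in skeletal muscle and is a textbook target of the oxygen-regulated factor HIF1, and its B subunit prevails in the adult heart. The fetal heart uses glucose and lactate as main fuels and turns to fatty acids after birth.

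The names need a caution. The array's annotation calls the PFKP probes PFKM, the ENO3 probe ENO1, the LDHA probes LDH-M and the LDHB probe LDH-H. PFKP, ENO3 and LDHA were assigned through the transcript accession in the RefSeq gene table, and LDHB through its synonym LDH-H. That table also lists PFKM and ENO1 as separate rabbit genes, and which of the related transcripts a probe binds was not tested. Signals are log2 values. Probes bind with different strength, so a signal is compared between arrays and never as an amount of 1 transcript against another. RNA from fewer cells of a type and less RNA per cell cannot be told apart in whole ventricle.

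Among all probes, 0 of 43603 (0%) passed the Benjamini and Hochberg adjusted threshold of 0.05 in limma, and 1562 (3.58%) had an unadjusted p under 0.05. An ordinary paired test also called 0. None of the 13 enzyme probes was among either count. All 13 had a mean difference above 0, IUGR minus control, with a median of 0.20 log2, against a median of 0.01 over all probes, of which 52.0% were above 0. At least 4 of 6 pairs were higher in IUGR for 11 of the 13 enzyme probes, against 36.5% of all probes, and at least 5 of 6 for 4 of them, against 11.7%. The probes of 1 gene are not separate evidence, and by gene these counts were 4 and 1 of 5. The enzymes were also chosen with earlier results of these data known, so the counts are no test. For 0 of the 13 probes did the IUGR and control ranges stand apart, as they did for 0.0505% of all probes.

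PFKP, the platelet type of phosphofructokinase, differed least among the 4 enzymes below the top of the signal scale. Its brightest probe ran from 12.03 to 12.62 with a median of 12.32 in IUGR, and from 11.89 to 12.60 with a median of 12.19 in control ventricles. The groups covered nearly the same range, with both ventricles of pair 6 at the top of their groups. The difference was 0.12 ± 0.26 (SD, n = 6 pairs), a 1.09-fold difference, with 4 of 6 pairs higher in IUGR (limma adjusted p = 0.982, 95% interval -0.17 to 0.42). Pair 2 gave 0.56 and pair 5 gave 0.31, while pairs 3 and 4 gave -0.13 and -0.05. Without pair 2 the mean was 0.04.

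The 5 PFKP probes gave mean differences from 0.12 to 0.18, all above 0, and correlated with each other at r = 0.857 to 0.963 over the 12 arrays (Spearman rho 0.881 to 0.979, 10 probe pairs, as a description of the same RNA read 5 times). Within a pair they lay at most 0.26 log2 apart, in pair 2. Their mean gave 0.15. The probes disagreed in sign in pair 1, where they ran from -0.01 to 0.10, and in pair 3, where they ran from -0.15 to 0.06.

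ALDOA, the aldolase of muscle and red blood cells, was bright on all arrays. Its probe ran from 14.41 to 14.97 with a median of 14.60 in IUGR, and from 14.18 to 14.75 with a median of 14.44 in control ventricles. IUGR was higher in pairs 1, 2, 5 and 6 and lower in pairs 3 and 4, and the ranges overlapped. The difference was 0.20 ± 0.26 (SD, n = 6 pairs), or 1.15-fold (limma adjusted p = 0.982, 95% interval -0.10 to 0.50). An exact two-sided test that turned the sign of each pair in all 64 ways gave p = 0.125, where 6 pairs can give no p below 0.03125.

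ENO3, the enolase of striated muscle, had the widest scatter of the 5 genes among controls and in the pair differences. In IUGR ventricles it ran from 9.12 to 9.86 with a median of 9.48, and in control ventricles from 8.40 to 10.07 with a median of 8.82. The IUGR values lay inside the range of the control values, whose SD was 0.69. In IUGR the SD of ENO3 was 0.24, below that of LDHA (0.37). The difference was 0.40 ± 0.75 (SD, n = 6 pairs), or 1.32-fold (limma adjusted p = 0.982, exact p = 0.25, 95% interval -0.24 to 1.05). The pairs split widely, with 1.26 in pair 5, 1.04 in pair 2, 0.58 in pair 6 and 0.49 in pair 1, against -0.21 in pair 4 and -0.74 in pair 3. Pair 3 held the control ventricle with the highest ENO3. The mean was 0.63 without pair 3 and 0.23 without pair 5.

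**Figure D1:**
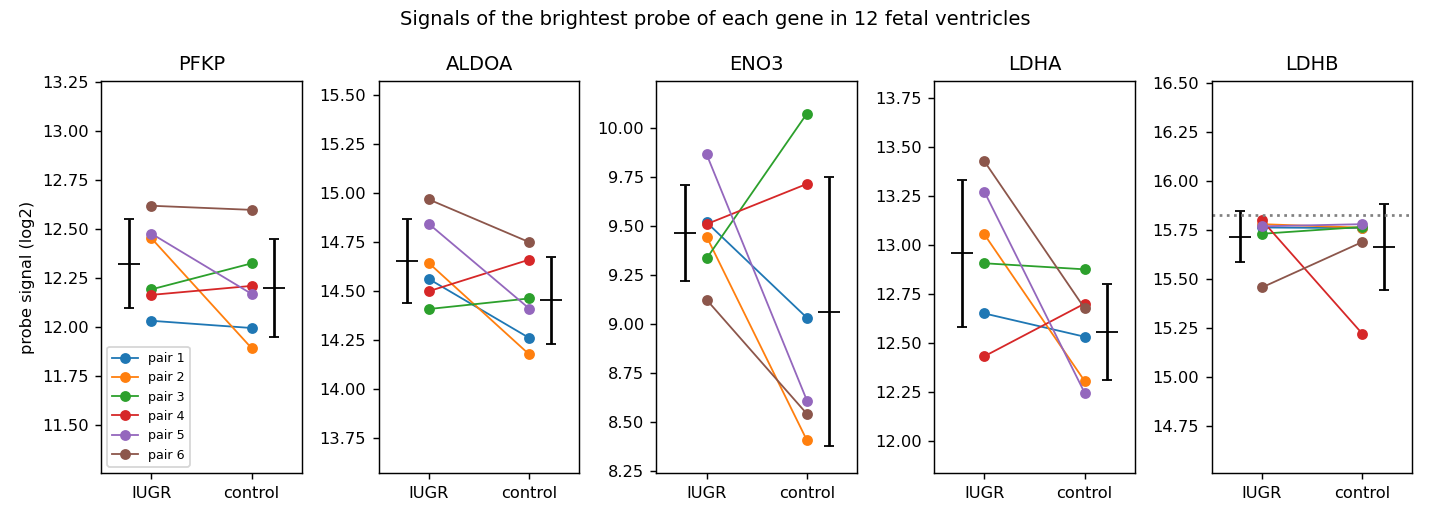
Signal of the brightest probe of each gene (log2, y axis, each panel spanning the same number of log2 units) in IUGR and control ventricles, with a line for each pair and black bars for the group mean ± SD of 6 arrays. The ranges of the groups overlap for all 5 genes, ENO3 is widest among controls, and LDHB lies just under the highest value of the table (dotted line, 15.83).

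LDHA, the muscle-type subunit of lactate dehydrogenase, differed by nearly the same amount with each of its 5 probes, and none of them passed the test. Its brightest probe ran from 12.43 to 13.43 with a median of 12.98 in IUGR, and from 12.25 to 12.88 with a median of 12.61 in control ventricles. IUGR replicates 2, 3, 5 and 6 lay above every control, and IUGR replicates 1 and 4 lay within the control range. The difference was 0.40 ± 0.51 (SD, n = 6 pairs), or 1.32-fold, with 5 of 6 pairs higher in IUGR (unadjusted limma p = 0.0795, adjusted p = 0.982, exact p = 0.156). The 95% interval of -0.06 to 0.86 spans 0.958-fold to 1.82-fold.

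Pair by pair, LDHA differed by 1.03 in pair 5, 0.75 in pair 6 and 0.75 in pair 2. It differed by 0.12 in pair 1, 0.03 in pair 3 and -0.27 in pair 4. Thus 3 pairs carried the mean and the other three lay near or below 0. The mean was 0.28 without pair 5 and 0.54 without pair 4.

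The 5 LDHA probes were close to identical in behaviour. Their mean differences ran from 0.38 to 0.40, with SDs over the pairs from 0.47 to 0.53 and unadjusted limma p from 0.0690 to 0.0907. They correlated with each other at r = 0.955 to 0.991 over the 12 arrays and at 0.971 to 0.996 over the 6 pair differences (10 probe pairs). Within a pair they lay 0.10 to 0.22 apart, while the pairs themselves spanned from -0.27 to 1.03 for the brightest probe. The scatter between pairs was therefore larger than that between probes, and more probes of the same RNA do not reduce it. In pair 3 the probes straddled 0, from -0.06 to 0.06.

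**Figure D2:**
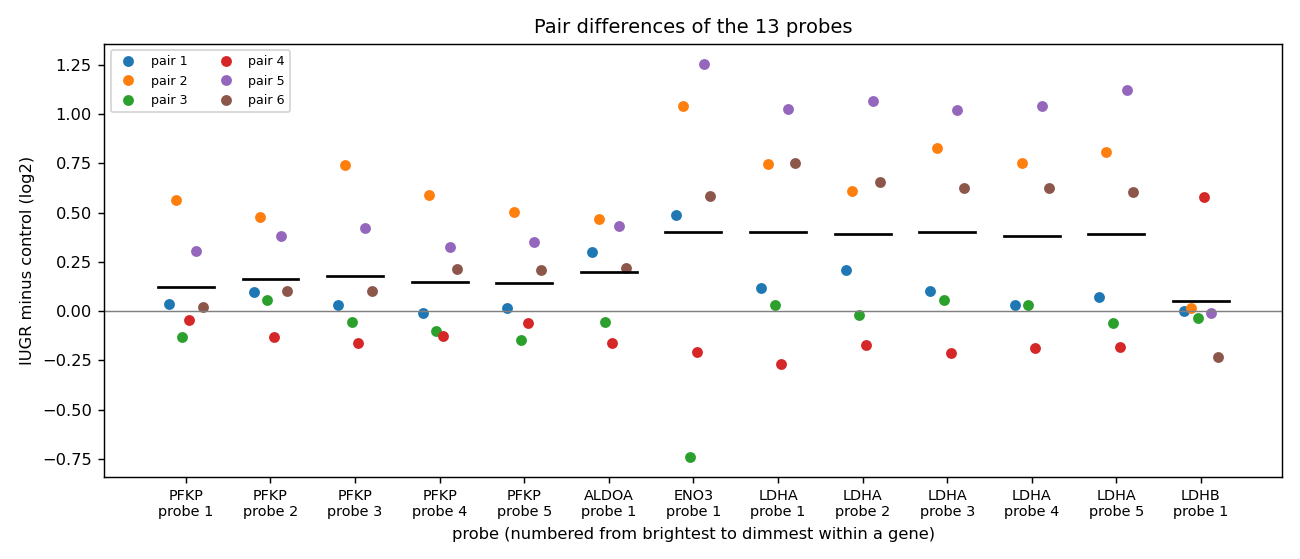
IUGR minus control difference (log2, y axis) of each of the 13 probes (x axis, numbered from the brightest within a gene), 1 coloured point for each pair and a black line for the mean. Pair 5 is the highest and pair 4 the lowest for each of the 5 LDHA probes, at 1.02 to 1.12 and at -0.27 to -0.17, while pairs 2 and 6 change places between probes, and pairs 2 and 5 are the highest for PFKP, ALDOA and ENO3.

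LDHB, the heart-type subunit, sat near the top of the scale. Its only probe ran from 15.46 to 15.80 with a median of 15.77 in IUGR, and from 15.22 to 15.78 with a median of 15.76 in control ventricles. The highest value of the table is 15.83, and 56 probes had a higher mean over the 12 arrays. All arrays but IUGR replicate 6, at 15.46, and control replicate 4, at 15.22, lay between 15.69 and 15.80. The difference was 0.05 ± 0.27 (SD, n = 6 pairs), with 3 of 6 pairs each way (limma adjusted p = 0.986, 95% interval -0.25 to 0.36), and it turned to -0.052 without pair 4. So close to the ceiling a difference in transcript between ventricles may not show as a difference in signal, and the interval covers the scatter of the signal only.

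LDHA was set against LDHB within each array, where only the change of the log2 difference between arrays can be read, since its size depends on both probes. That reading is limited too, because LDHB lay near the ceiling and a difference in its transcript may not show here. The values and p below cover the signals only. LDHA minus LDHB ran from -3.37 to -2.03 with a median of -2.77 in IUGR, and from -3.53 to -2.52 with a median of -3.12 in control ventricles. The values overlapped, with IUGR replicate 6 highest and control replicate 5 lowest. IUGR minus control, this quantity differed by 0.35 ± 0.72 (SD, n = 6 pairs), with 5 of 6 pairs higher (exact p = 0.219). In pairs 1, 2, 3 and 5 LDHB differed by -0.03 to 0.02, and LDHA minus LDHB differed by 0.12, 0.73, 0.07 and 1.04, close to LDHA alone. Pair 4 gave -0.85, with a difference of -0.27 in LDHA and of 0.58 in LDHB. Pair 6 gave 0.98, with 0.75 in LDHA and -0.23 in LDHB. Over all 6 pairs, the other 4 LDHA probes gave 0.33 to 0.35. Leaving out pair 5 gave a mean of 0.21, leaving out pair 6 gave 0.22 and leaving out pair 4 gave 0.59. With pairs 4 and 6 both left out, an alternative chosen after seeing the data, it was 0.49 (exact p = 0.125, the smallest that 4 pairs allow).

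**Figure D3:**
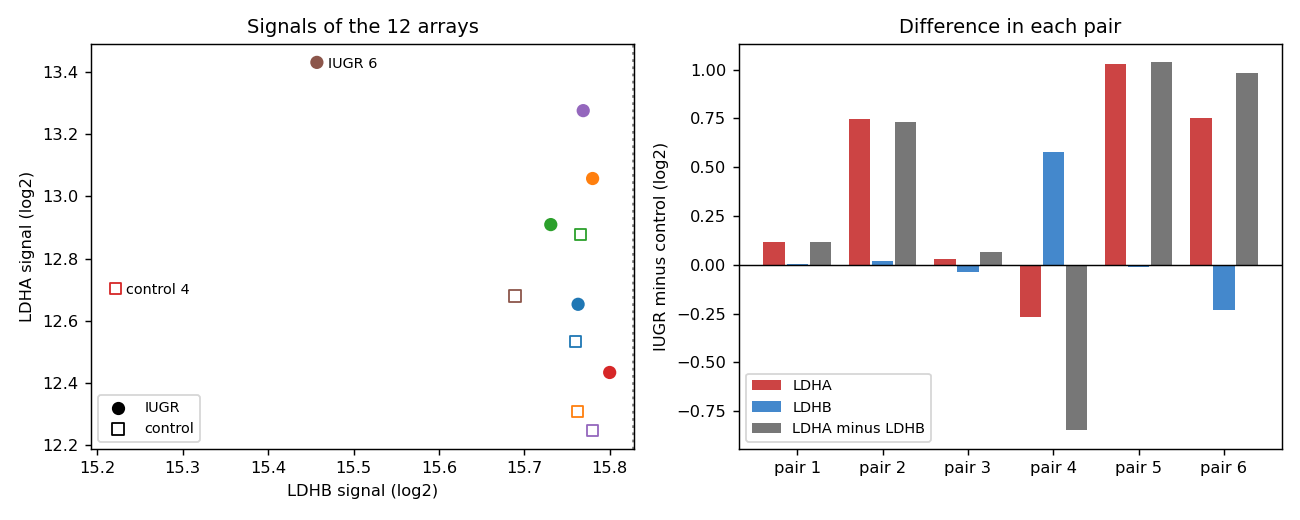
Left, LDHA against LDHB signal (both log2) in 12 ventricles, filled circles for IUGR and open squares for control, coloured by pair, with the highest value of the table dotted. Right, the IUGR minus control difference (log2) of LDHA, of LDHB and of LDHA minus LDHB in each pair, where LDHB is near 0 except in pairs 4 (0.58) and 6 (-0.23).

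Against the other enzymes, LDHA differed by 0.28 ± 0.38 more than PFKP (5 of 6 pairs, exact p = 0.156) and by 0.20 ± 0.32 more than ALDOA (4 of 6 pairs, exact p = 0.25). Against ENO3 the mean was -0.0022 ± 0.42 (exact p = 1, SD, n = 6 pairs in each case). These comparisons were chosen after seeing the data, and over the 4 genes set against LDHA, LDHB included, the lowest Benjamini and Hochberg adjusted exact p was 0.333.

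LDHB apart, the pairs in which 1 enzyme was higher were largely those in which the others were. Over the 6 pair differences, the correlations among PFKP, ALDOA, ENO3 and LDHA ran from r = 0.701 (PFKP with LDHA) to 0.917 (ALDOA with ENO3), and rho ran from 0.657 to 0.943. For ALDOA with ENO3 the exact permutation p was 0.0153 for r (rho = 0.829, exact permutation p = 0.0583). None of the 10 correlations among the 5 genes passed after Benjamini and Hochberg adjustment (lowest adjusted p = 0.103 for r and 0.111 for rho, exact permutation). Without the 2 pairs farthest from the median of the first gene, r was 0.417 to 0.983 among these 4 genes. LDHB, at the ceiling, correlated with the others at r = -0.657 to -0.17 and rho = -0.486 to 0.257, and without the 2 farthest pairs its r ran from -0.444 to 0.796. All genes share the same 12 arrays, so a difference of a whole array would move them together.

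The means of the 2 ventricles of a pair were compared in the same way. PFKP and ALDOA means correlated at r = 0.895 and PFKP and LDHA means at 0.88 over the 6 pairs (exact permutation p = 0.0194 and 0.0181, adjusted 0.0972 for both), while the means of ENO3 correlated with those 3 genes at -0.433 to -0.337 (exact permutation p = 0.399 to 0.496, adjusted 0.62). Pair 6, the highest in PFKP and ALDOA, was the lowest in ENO3.

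The wider pathway was covered thinly. Of 62 genes listed for glycolysis, glycogen use, glucose and lactate transport, pyruvate entry and the return path to glucose, 13 had a named probe, and 0 passed the adjusted threshold. Besides the 5 enzymes these were 8 genes, 6 with a mean above 0 and 2 below, with a median of 0.09 log2, against 0.01 over the 591 named genes, of which 51.6% were above 0. SLC2A1 and SLC2A4, the basal and the insulin-responsive glucose transporter, differed by 0.02 ± 0.33 and 0.07 ± 0.31. PGM1, which links glycogen to glucose phosphate, differed by 0.11 ± 0.29. PHKG1, a catalytic subunit of the kinase that activates glycogen phosphorylase, differed by 0.15 ± 0.35, with 5 of 6 pairs higher. BPGM, the red cell enzyme that makes bisphosphoglycerate, differed by 0.14 ± 0.26.

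The transcript of HIF1A, a subunit of the oxygen-regulated factor HIF1, was lower in 5 of 6 pairs. Its difference was -0.22 ± 0.37, with 3 of 3 probes below 0 (limma adjusted p = 0.982). It ran from 8.34 to 8.90 in IUGR and from 8.28 to 9.63 in control ventricles, so that the ranges overlapped. The arrays do not read the protein, and the activity of HIF1 was not tested. FBP1 and FBP2, which run the phosphofructokinase step backwards in liver and in muscle, lay below the median probe level. FBP2 differed by 0.73 ± 1.26 and FBP1 by -1.15 ± 1.76, and the 4 probes of FBP1 ran from -1.15 to 0.46. Each of these 8 genes had a limma adjusted p from 0.982 to 0.992.

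**Figure D4:**
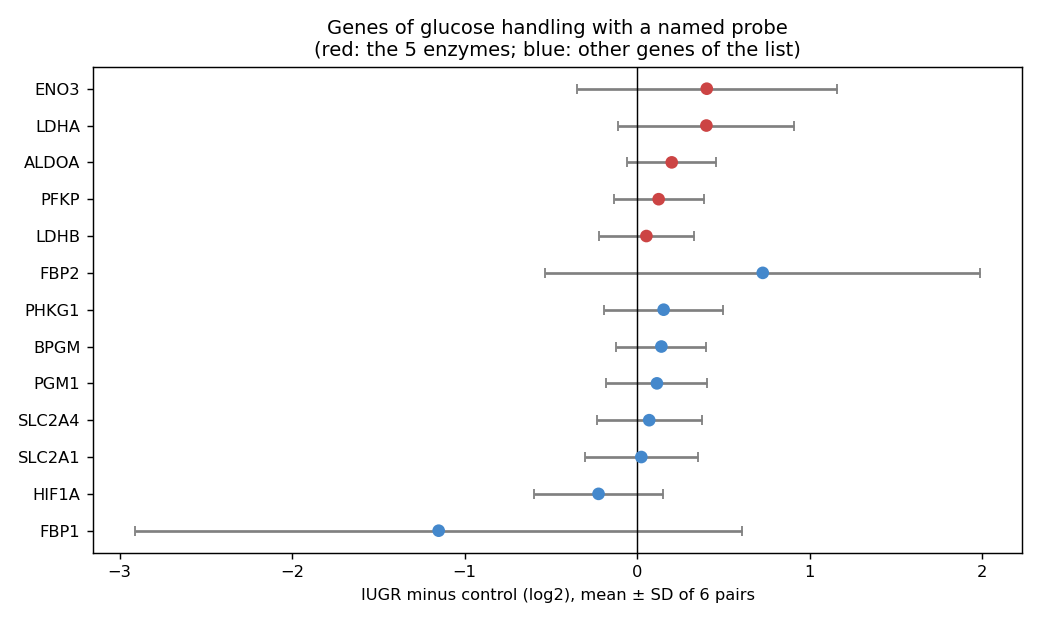
IUGR minus control difference (log2, x axis; mean with SD over 6 pairs) of the 13 listed genes with a named probe, the 5 enzymes in red above and the other 8 genes in blue below. The SD bars of all 13 genes cross 0, and the widest belong to the dim FBP1 and FBP2.

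Among the other 586 named genes, those whose signal followed each enzyme most closely over the 12 arrays were picked by Pearson's r, as a description of arrays that form 6 pairs. For LDHA they were MYH6, the alpha myosin heavy chain (r = 0.823, rho = 0.937), and CRYGS, a lens crystallin (0.749 and 0.669). For ENO3 they were RPS20, a ribosomal protein (0.854 and 0.868), which lies at the ceiling with a difference of 0.0026 ± 0.038, and KCNIP2, a potassium channel subunit (0.81 and 0.727), which differed by 0.55 ± 0.57. For PFKP they were CD38, an enzyme that consumes NAD, and ACTN3, an actinin of fast skeletal muscle (r = 0.897 and 0.816), both below the median probe level, and for ALDOA VDAC1, a pore of the outer mitochondrial membrane, and JPH2, a junction protein of heart muscle (0.815 and 0.797). For LDHB they were TNF, an inflammatory cytokine, and KCNA1, a potassium channel, at r = 0.639 and 0.629 (rho = 0.623 and 0.256). CRYGS, TNF and KCNA1 also lay below the median probe level, with KCNA1 at percentile 7.34.

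Markers of the cells in the samples were checked. Of 14 cardiomyocyte markers 3 were measured, MYH6, RYR2 and CKM, at percentiles 97.4 to 99.8 of the probe levels. Their mean was 14.51 ± 0.08 in IUGR and 14.49 ± 0.10 in control (SD, n = 6). The genes did not move alike. MYH6 differed by 0.21 ± 0.42 (higher in 5 of 6 pairs), RYR2 by -0.13 ± 0.21 (lower in 5 of 6) and CKM by -0.0052 ± 0.16. Troponins of heart muscle had no named probe. The red blood cell list, with HBA and HBB2 measured of 12, was higher in IUGR in 6 of 6 pairs, by 0.26 ± 0.06, at 14.99 to 15.45 in IUGR and 14.71 to 15.17 in control, also near the ceiling. HBA itself was higher in all 6 pairs, with a difference of 0.41 ± 0.31, and HBB2 in 4, with 0.12 ± 0.29. The SD of 0.06 is that of the mean of these genes, and each gene alone scattered more. Red cells and their precursors also run glycolysis, and the part of blood in the enzyme differences was not tested. By pair, the red cell list was highest in pair 4 (0.35), where LDHA, ENO3, ALDOA and PFKP were lower in IUGR. Next came pairs 5 (0.31) and 2 (0.28), where these enzymes were higher in IUGR.

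The skeletal muscle list, with ACTN3, TNNI2 and MYH1 measured of 8, ran from 5.56 to 6.60 in IUGR and from 5.57 to 6.60 in control, with a difference of 0.08 ± 0.58. It was highest in pairs 5 (0.79) and 2 (0.73), as were ENO3 and ALDOA. It was lowest in pair 1 (-0.71), where ENO3 was higher in IUGR by 0.49. The genes of the list did not move alike, with ACTN3 at 0.17 ± 0.92, TNNI2 at -0.11 ± 1.18 and MYH1 at 0.18 ± 0.46. ACTN3 and TNNI2 lay at percentiles 27.8 and 52.7 of the probe levels. The part of skeletal muscle fibres in ENO3 was not tested. The atrial list, with NPPA, SLN and GJA5 measured of 5, differed by 0.44 ± 1.03 and was highest in pair 3 (1.77), and the liver list, with 6 measured of 9, differed by -0.54 ± 0.99. The endothelial list, with KDR and VWF measured of 5, ran from 4.08 to 5.28 in IUGR and from 3.58 to 4.90 in control, with a difference of 0.27 ± 0.66. KDR alone was higher in 6 of 6 pairs (0.43 ± 0.30) and VWF in 4 of 6. The smooth muscle list, with TAGLN and MYH11 measured of 4, differed by -0.03 ± 0.46, and its 2 genes went opposite ways, with TAGLN at 0.50 ± 0.43 (higher in 5 of 6 pairs) and MYH11 at -0.55 ± 0.92 (lower in 5 of 6). The part of vessel cells in the enzyme differences was not tested. The leukocyte and fibroblast lists, with 2 and 1 measured genes, differed by -0.03 ± 0.40 and 0.13 ± 0.77.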

How the data were processed

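Total RNA of 12 fetal rabbit ventricles was labelled with Cy3 and hybridised to single-colour Agilent arrays, per the labels' protocols. The deposited values are log2 signals. RMA is the tool that the submitters' processing notes name for the authors' processing, without a version. Base 2 was read from the top value, 15.83, just below the range of a scanner. How background, flags and probe filters were handled is not given in the sources used here. The arrays have nearly the same distribution of values, so differences are relative to the bulk of probes. Values were used as deposited.

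Symbols came from the platform annotation for 1673 probes (3.84%), updated through the RefSeq gene table (1402 by accession, 238 by symbol, 33 by synonym). The probe with the highest mean represented a gene. limma 3.58.1 in R 4.3.3 was fitted with lmFit and eBayes to all 43603 probes with the pair as block, two-sided, with Benjamini and Hochberg adjustment over all of them; it was tested on simulated data. The intervals are limma's. Deviations from group means correlated within pairs at 0.129 to 0.254. Each of the 12 arrays correlated best with its partner among the 6 arrays of the other group. Exact sign-change and permutation tests went through every arrangement with numpy 2.4.6, and correlations used scipy 1.17.1. The number of arrays limits the precision: the median standard error was 0.191 log2. By rule, the text describes the 5 enzymes, the measured genes of the pathway list, for each enzyme the 2 genes most like it, and the measured cell type markers. The members and lists were chosen with earlier results of these data known. No sequence was used here.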

Additional observations from a re-analysis of the deposited data

Results flagged for a closer look

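In 28 groups of 6 values (13 probes and LDHA minus LDHB, in IUGR and in control), Dixon's test at the 95% level marked 2 values as far from the others of their group. Chance marks about 1 in 20 groups where the groups are independent and the values normally distributed. Here probes of 1 gene read the same RNA, and LDHB lies near the ceiling, so that rate is only a rough guide. Both marked values were LDHB. IUGR replicate 6 stood at 15.46, with the other IUGR ventricles from 15.73 to 15.80, and control replicate 4 stood at 15.22, with the other controls from 15.69 to 15.78. Without the pairs of these 2 ventricles the LDHB difference was -0.0063.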

How the results depend on the processing

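No result passed its threshold under any alternative run, and PFKP, ALDOA, ENO3, LDHA and LDHA minus LDHB kept their sign under all of them. All alternatives were those listed with the design, except the 2 that leave out pairs 4 and 6 together and the recounts of enzyme probes, which were chosen after seeing the data. The count of probes past the adjusted threshold stayed at 0, with the lowest adjusted p from 0.897 to 1.00. At an unadjusted p under 0.05, the 1562 probes became 857 without the replicate block and 624 among probes at or above the median level, where fewer were tested. Without the replicate block LDHA minus LDHB had an exact permutation p of 0.188, against 0.219 with it, and the block changed no call. LDHB turned to -0.052 without pair 4 and to -0.0063 without pairs 4 and 6, the pairs of the 2 ventricles low in LDHB. Leaving out 1 pair gave 0.04 to 0.18 for PFKP, 0.15 to 0.27 for ALDOA, 0.23 to 0.63 for ENO3, 0.28 to 0.54 for LDHA, -0.052 to 0.11 for LDHB and 0.21 to 0.59 for LDHA minus LDHB, whose smallest possible exact p is then 0.0625. Array weights gave 0.10 for PFKP and 0.34 for LDHA. Of the 13 enzyme probes, 12 or 13 had a mean above 0 when 1 pair was left out, and 11 to 13 were higher in most of the remaining pairs.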

Other observations

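All 5 enzymes were set beside probes of like brightness, as a description of these arrays. LDHA had a higher mean difference than 99.6% of the 827 probes with a mean signal from 12 to 13, and the SD of its pair differences, 0.51, was also larger than that of 96.6% of them, whose median was 0.20. ENO3 had a higher mean difference than 99.4% of the 2680 probes from 9 to 10, with an SD of 0.75 that exceeded 98.0% of theirs. ALDOA stood at 98.5% of 340 probes from 14 to 15 for its mean and at 77.6% for its SD. PFKP stood at 90.0% for its mean and at 72.2% for its SD in the same window as LDHA, and LDHB at 79.1% and 90.5% of 326 probes from 15 to 16. These probes were picked as enzymes with results of the same arrays known, so the ranks are no test.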
